A study of Homo sapiens with 2 samples.

Results

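This account covers 10 genes that restrain, carry or form mTORC1 in PC-3 cells exposed to RD (riccardin D), a macrocyclic bisbibenzyl from a liverwort. PC-3 is an androgen-independent human prostate cancer cell line. Expression was measured on Affymetrix HG-U133 Plus 2.0 arrays, with 1 array for PC-3 cells treated with RD for 24 h and 1 for control PC-3 cells. The study's supplementary heading gives the dose as 10 µmol/L. The protocol gives the control the DMSO vehicle, while its source name describes cells without treatment. The genes were chosen by name: DDIT4, SESN1, SESN3, TSC1, TSC2, RHEB, RRAGC, RRAGD, RPTOR and DEPTOR. They were read by 29 of the 54613 probe sets, and they are 10 of the 19775 genes to which a probe set could be assigned alone. A probe set is a group of short oligonucleotides that reads a transcript.

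mTORC1 is a kinase complex on the lysosome that promotes protein synthesis and cell growth when amino acids, energy and growth factors are in supply. The small GTPase RHEB switches it on, and the TSC1-TSC2 complex switches RHEB off. Amino acids act through pairs of Rag GTPases, which bring the complex to the lysosome through its scaffold raptor, and sestrins restrain this branch when leucine is short. DDIT4 (REDD1) acts through TSC when cells are starved of oxygen, energy or amino acids, and its gene is a known target of the stress transcription factor ATF4, as is SESN2.

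The deposited values are MAS5 signals, intensities on a linear scale that had been scaled alike on both arrays. Genes were called higher or lower after RD on a change of 2-fold or more, provided that the larger signal was at least 66.9, the median of every signal on both arrays (the floor). The brightest probe set represents each gene. Because each condition had only 1 array, the variation among cultures is unknown, nothing was tested and no p-value is given, and the small number of arrays sets the precision. The only error at hand is how far log2 differences scatter among probe sets for a gene, with an SD of 0.34 where a signal reached 377.4 (the 75th percentile) and of 0.76 for every probe set at the floor. It is given after ± below, as 0.34 where a signal reached 377.4 and as 0.76 otherwise, and leaves out any difference between cultures. The 0.76 also pools the bright probe sets, which scatter less, so it may understate the error of dimmer ones. Changes per cell and changes in the mix of cells cannot be told apart in such bulk RNA. Of the epithelial markers, KRT18 (10224.2 in control and 15416.6 in RD-treated cells) and KRT8 (113.8 and 159.3) reached the floor, while EPCAM and CDH1 lay under it on both arrays. None of the 3 leukocyte markers reached it. PECAM1 of 3 endothelial markers (121.6 and 72.7), COL1A1 of 3 fibroblast markers (370.6 and 325.8) and KLK3 of the 2 androgen-responsive markers with a probe set (131.4 and 230.6) did. PECAM1 and KLK3 did so only by their brightest probe set, and their others lay under the floor on both arrays. The part of other cells in the results was not tested.

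Of the 10 genes, 9 reached the floor, and 2 of these, DDIT4 and RRAGC, were called higher in RD-treated cells. None was called lower. Over all 12818 genes at the floor, 12.1% were called higher and 13.3% as lower. With so few genes, 2 of 9 is not read as a share above that background. The median log2 difference (RD minus control) of the 9 genes was 0.10, beside -0.0022 over all genes at the floor. Of the other 7 genes at the floor, TSC1, TSC2, RHEB, RRAGD, RPTOR and SESN1 had signals within 1.4-fold of control by their brightest probe sets, and DEPTOR did not.

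The promoters of the genes with the clearest differences are shown so that these genes can be seen beside one whose signal hardly differed. RefSeq windows (GRCh38.p14) were at hand for 8 of the 10 genes, and each line holds the 250 bases before the transcription start, 5′ to 3′ on the strand of the gene. DDIT4 lies on the plus strand (chr10:72273674-72273923), RRAGC on the minus strand (chr1:38859773-38860022), SESN2 on the plus strand (chr1:28259268-28259517) and TSC2, by the upstream of its 2 starts, on the plus strand (chr16:2047735-2047984). Capitals mark matches, on either strand, to the CCAAT box (CCAAT), the E-box (CACGTG) and the C/EBP-ATF element bound by ATF4 with its partners (TTNCATCA).
DDIT4: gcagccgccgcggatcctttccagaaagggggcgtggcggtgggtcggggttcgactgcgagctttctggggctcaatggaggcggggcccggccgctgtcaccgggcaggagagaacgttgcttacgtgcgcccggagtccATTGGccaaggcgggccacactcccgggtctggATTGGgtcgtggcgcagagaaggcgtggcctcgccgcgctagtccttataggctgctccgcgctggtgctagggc
RRAGC: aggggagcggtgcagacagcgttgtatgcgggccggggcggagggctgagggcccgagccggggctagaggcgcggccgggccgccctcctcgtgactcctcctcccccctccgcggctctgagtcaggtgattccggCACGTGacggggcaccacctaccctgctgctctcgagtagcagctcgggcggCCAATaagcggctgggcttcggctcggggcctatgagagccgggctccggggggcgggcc
SESN2: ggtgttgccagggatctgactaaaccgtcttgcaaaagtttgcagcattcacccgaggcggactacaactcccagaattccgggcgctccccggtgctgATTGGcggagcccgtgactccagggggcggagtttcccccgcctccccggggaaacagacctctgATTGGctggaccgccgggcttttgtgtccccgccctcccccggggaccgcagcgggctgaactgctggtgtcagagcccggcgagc
TSC2: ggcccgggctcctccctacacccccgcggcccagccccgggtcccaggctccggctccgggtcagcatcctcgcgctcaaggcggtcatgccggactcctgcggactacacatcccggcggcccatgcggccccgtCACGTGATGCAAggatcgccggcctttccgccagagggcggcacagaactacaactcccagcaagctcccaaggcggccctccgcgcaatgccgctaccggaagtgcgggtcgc

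The DDIT4 and SESN2 windows each held 2 CCAAT boxes in inverted orientation, the RRAGC window held 1 CCAAT box and 1 E-box, and the TSC2 window held an E-box that overlapped a C/EBP-ATF match (TGATGCAA). Among the 35116 RefSeq windows of the same length, 32.0% held a CCAAT box, 6.34% an E-box and 3.14% a C/EBP-ATF match. The cAMP response element TGACGTCA was found in 1.65% of all windows and in none of the windows of the described genes. RHEB also had 2 CCAAT boxes, at 104 to 100 and 51 to 47 bases before its start, with a signal that differed by less than 2-fold. These matches are a description of letters in short windows and say nothing of binding in these cells.

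DDIT4, the brake that acts through TSC under stress, showed the largest log2 difference among the 9 of the 10 genes that reached the floor. By its 1 probe set, DDIT4 stood at 4100.7 in control and at 13793.8 after RD. This is 3.36-fold higher, a log2 difference of 1.75 ± 0.34, or 5.13 times the SD between probe sets. Among the 12818 genes at the floor, 531 had a log2 difference as high or higher, and among the 7050 genes whose signals were 377.4 or more on each array, 104 did. The suffix of this probe set marks sequence that other transcripts can share, and no second DDIT4 probe set was there to set beside it. The study itself listed DDIT4 among its changed genes from these arrays, so its direction here is not independent evidence.

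The sestrins differed from each other. SESN1, which is known as a target of p53, had a signal of 132.1 in control and 124.6 in RD-treated cells, 0.943 of control (log2 difference -0.08 ± 0.76). SESN3, a known target of FOXO factors, lay under the floor by all 7 of its probe sets on both arrays, with signals from 1.5 to 36.6 in control and from 2 to 62.6 in RD-treated cells. In 6 of the 7 the RD signal was the higher one and in 1 (36.6 and 2) it was the lower one. No fold is given for SESN3, because signals under the floor are noisy after mismatch correction. SESN2 was not among the 10 genes but belongs to the wider pathway list. Its signal was 1003.5 in control and 3584 after RD (3.57-fold higher), and 437.4 and 2368.2 by its other probe set (5.41-fold higher). Both SESN2 probe sets carry suffixes for shared sequence. Of the 3 sestrin genes, SESN2 was the 1 that passed 2-fold above the floor.

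**Figure D1:**
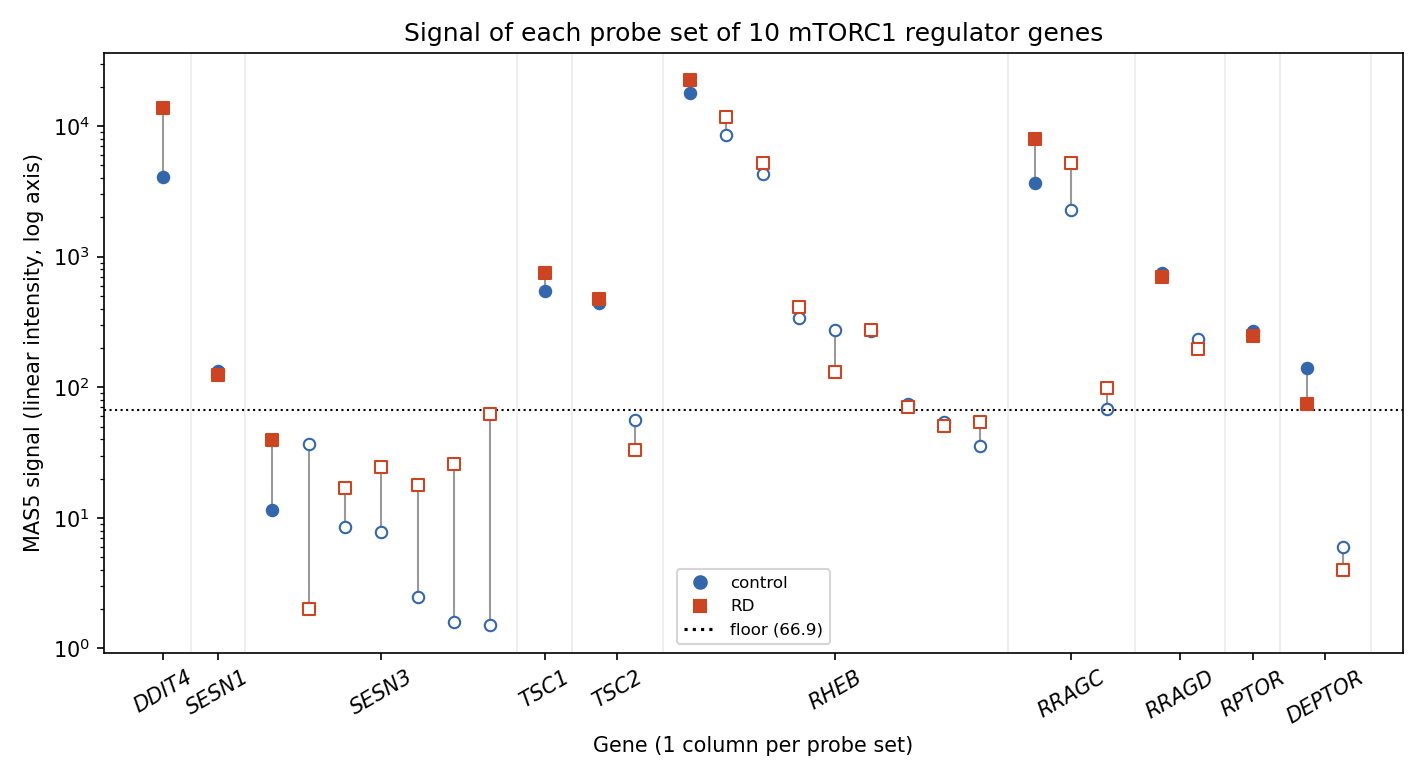
MAS5 signal (log axis) of each of the 29 probe sets in control (blue circles) and after RD (red squares), joined by a line and grouped by gene. The brightest probe set for each gene is filled, the others are open, and a dotted line shows the floor (66.9). The squares of DDIT4 and of all 3 RRAGC probe sets lie above the circles, and all 7 SESN3 probe sets lie under the floor.

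The TSC complex, through which DDIT4 acts, did not reach 2-fold in either subunit. TSC1, the stabilising subunit hamartin, was at 541.1 in control and 754.6 in RD-treated cells, 1.39-fold higher, a log2 difference of 0.48 ± 0.34. TSC2, the subunit tuberin that turns off RHEB, was at 439.7 and 471.5, 1.07-fold higher (0.10 ± 0.34). Its other probe set lay under the floor on both arrays, at 56 and 33.3. The TSC2 difference was smaller than the SD between probe sets, and the TSC1 difference was 1.41 times that SD.

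RHEB, the GTPase that activates mTORC1, was read by 9 probe sets, and they did not all move alike. The brightest went from 17790.4 in control to 22399.5 after RD, 1.26-fold higher (0.33 ± 0.34), and 3 further bright probe sets (at or above 377.4) were 1.23-fold to 1.38-fold higher. Another was 2.08-fold lower, from 274 to 131.9. The 7 RHEB probe sets at the floor thus ran from -1.05 to 0.46 in log2 difference, with 5 above 0 and 2 below. The 4 brightest all carry suffixes for shared sequence. The brightest of those without a suffix stood at 269.7 and 272.5.

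The Rag GTPases split between the genes. RRAGC and RRAGD encode RagC and RagD, the alternative partners of RagA or RagB. RRAGC was at 3655.6 in control and 7958.9 after RD, 2.18-fold higher, a log2 difference of 1.12 ± 0.34. A second probe set, without a shared-sequence suffix, was at 2281.5 and 5188.4, 2.27-fold higher, and the third, close to the floor, was at 68.3 and 99.1, 1.45-fold higher. All 3 RRAGC probe sets had the higher signal in RD-treated cells. RRAGD was at 752.7 and 696.6 by its brighter probe set (0.925 of control, log2 difference -0.11 ± 0.34) and at 232.2 and 196.6 by the other (0.847 of control). Both RRAGD differences were smaller than the SD between probe sets. RRAGC stood higher than 89.9% of genes at the floor by log2 difference and RRAGD higher than 44.7%.

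RPTOR encodes raptor, the scaffold that recruits substrates to mTORC1. Its signal was 268.6 in control and 245.8 in RD-treated cells, 0.915 of control (-0.13 ± 0.76). DEPTOR, an inhibitor that binds the mTOR kinase itself, was at 141.5 in control and 74.8 in RD-treated cells, 0.529 of control, a log2 difference of -0.92 ± 0.76. This is short of 2-fold and 1.21 times the SD between probe sets, with the RD signal just above the floor. Its second probe set lay under the floor, at 6 and 4. Of the genes that restrain mTORC1, DDIT4 was thus higher, TSC1, TSC2 and SESN1 were within 1.4-fold of control, and DEPTOR had the lowest log2 difference of the 9 genes at the floor.

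**Figure D2:**
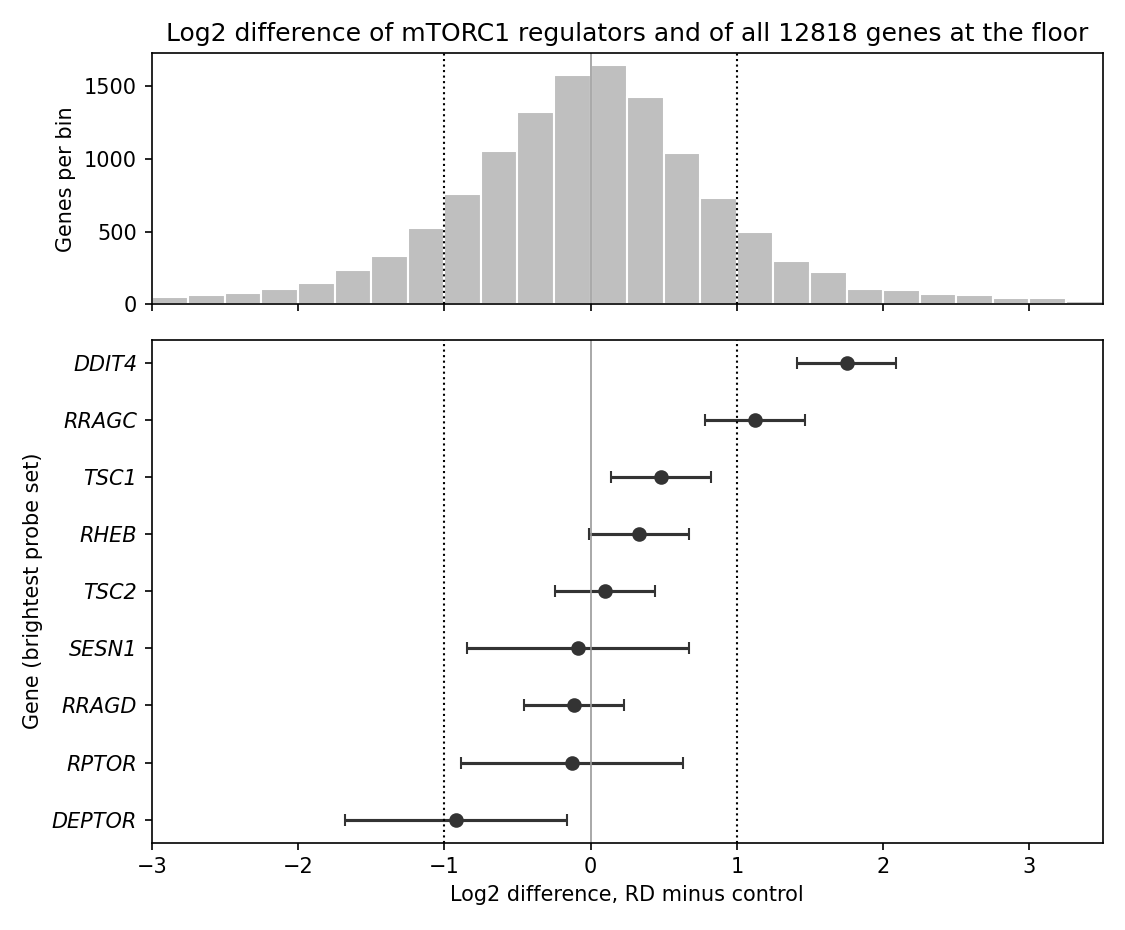
Lower panel, log2 difference in signal (RD minus control, horizontal) of the brightest probe set of each of the 9 genes at the floor, with bars of 1 SD between probe sets of a gene (0.34 or 0.76 by brightness), not between cultures. Upper panel, number of genes per bin of 0.25 in log2 difference over all 12818 genes at the floor, on the same axis, which leaves out genes beyond its ends. Dotted lines mark 2-fold, and DDIT4 (1.75) and RRAGC (1.12) lie beyond the right one.

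Beyond these genes, 66 further genes of the pathway were listed, of which 61 had a probe set of their own and 58 reached the floor. Of the 58, 7 were called higher (12.1%, beside 12.1% of all genes) and 2 as lower (3.45%, beside 13.3%). In signal, 24 were above and 34 below control, beside 6390 above and 6425 below over all genes at the floor. The median log2 difference of the 58 was -0.10. With a floor at the 75th percentile, 2 of 51 were lower, beside 10.9% of all genes. At 1.5-fold, 13 of the 58 were lower, beside 24.7% of all genes, and 15 higher, beside 22.8%. The small count of lower genes at 2-fold is thus not read as a shortage.

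Of 5 mTORC1 core genes none reached 2-fold by the brightest probe set, from TTI1, an assembly factor, at 0.799 of control to AKT1S1 (PRAS40), an inhibitory subunit, at 1.59 of control. The second AKT1S1 probe set was 2.12-fold higher, from 281.8 to 598.3. MTOR itself was at 417.8 in control and 445.4 in RD-treated cells. Of 2 TSC and RHEB partners at the floor, TBC1D7, a TSC subunit, was at 0.768 and RHEBL1 at 1.10 of control. The DDIT4 paralogue DDIT4L lay under the floor on both arrays (2.7 and 26.8). None of 4 mTORC2 genes reached 2-fold by the brightest probe set, from MAPKAP1 at 0.567 to RICTOR at 1.66 of control. Their median log2 difference was -0.66. The other MAPKAP1 probe sets were at 0.529, 0.512 and 0.456 of control, the last 2.19-fold lower, from 647.2 to 295.4.

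Genes of the lysosomal amino acid branch were mixed. Of 8 Rag and Ragulator genes, the signal of 7 was lower after RD, beside 6425 of all 12818 genes at the floor. The differences of RRAGA, RRAGB, LAMTOR5 and BORCS6 were smaller than the SD between probe sets. LAMTOR4, a subunit of the Ragulator scaffold, passed 2-fold, from 2193.3 to 1058.2 (2.07-fold lower). It was read by 1 probe set, with a suffix for shared sequence. This makes 12.5% called lower, beside 13.3% of all genes. The RagA gene RRAGA was at 3099.1 and 2918.5 and the RagB gene RRAGB at 234.8 and 165.8. RRAGC was thus the Rag gene of the 4 that passed 2-fold. Among 5 genes of GATOR1, the complex that turns off RagA and RagB, and of its anchor KICSTOR, none did by the brightest probe set. They ran from KPTN at 0.517 to ITFG2 at 1.90 of control. By another probe set, ITFG2 was 3.13-fold higher (117.2 to 367.1) and KICS2 3.43-fold higher (204.6 to 702.7). The remaining probe sets of ITFG2 and KICS2 were higher by less than 2-fold. Of 5 genes of GATOR2, the complex to which sestrins bind, SEC13 was 2.21-fold higher, from 3896.3 to 8597.9. SEC13 also forms part of the COPII coat of the endoplasmic reticulum and of the nuclear pore. Of 5 nutrient sensor and folliculin genes, SESN2 was the 1 past 2-fold by the brightest probe set. Folliculin (FLCN) was 1.85-fold higher by that probe set, 1.73-fold higher by a second, and at least 3.61-fold and 1.65-fold higher by the others, whose control signals lay under the floor. Its partner FNIP1 was 1.65-fold higher by the brightest probe set and 4.60-fold, 2.02-fold, 1.58-fold and at least 3.86-fold higher by the other 4. FNIP2, in the same list, went the other way, at 0.714 of control by its brightest probe set. By its other probe sets at the floor, FNIP2 was at 0.767 of control and 2.22-fold lower (658.8 to 296.1). By the median over all probe sets of a gene, both FLCN and FNIP1 were called higher. For FLCN this median depends on raw ratios of probe sets with control signals of 7.6 and 14.6, under the floor.

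Upstream kinases and outputs held the other differences. Of 10 upstream kinase genes, PRKAB1, a subunit of the energy sensor AMPK, was 2.42-fold higher, from 874.3 to 2113.5, and 2.16-fold higher by its second probe set. AKT2, a kinase that inactivates TSC2, was 2.13-fold lower, from 745.1 to 349.1, while its other 4 probe sets at the floor were at 0.941, 0.716, 0.660 and 0.221 of control, the last with an RD signal under the floor. Of 14 substrate and output genes, 4 were called higher (28.6%, beside 12.1% of all genes) and 0 lower (beside 13.3%). These were ATG13, part of the autophagy-starting ULK1 complex (2.55-fold), IRS2, an adaptor of insulin receptors (2.35-fold), GRB10, an adaptor that damps insulin signalling (2.24-fold), and TFE3, a transcription factor of lysosomal genes (2.11-fold). LPIN1, a phosphatidate phosphatase and mTORC1 substrate, was 1.98-fold lower by its brightest probe set, from 4230.2 to 2136.3, and 2.15-fold and 2.03-fold lower by the other 2. By another probe set, EIF4E was 2.28-fold lower (2368.7 to 1039.7) and RPS6KB1 2.27-fold higher (983.8 to 2229.5). The remaining probe sets of EIF4E and RPS6KB1 did not reach 2-fold. The median log2 difference of this list was 0.03. With so few genes, 4 of 14 is not read as a share above that background. By the median over all probe sets of a gene, TFE3, GRB10 and AKT2 no longer reached 2-fold while FLCN and FNIP1 were called higher and LPIN1 lower, which left the counts at 7 and 2. Median centring also called LPIN1 lower, and without shared-sequence suffixes PRKAB1, TFE3 and GRB10 were the pathway genes called higher. SESN2, SEC13, ATG13 and IRS2 had no probe set without such a suffix.

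**Figure D3:**
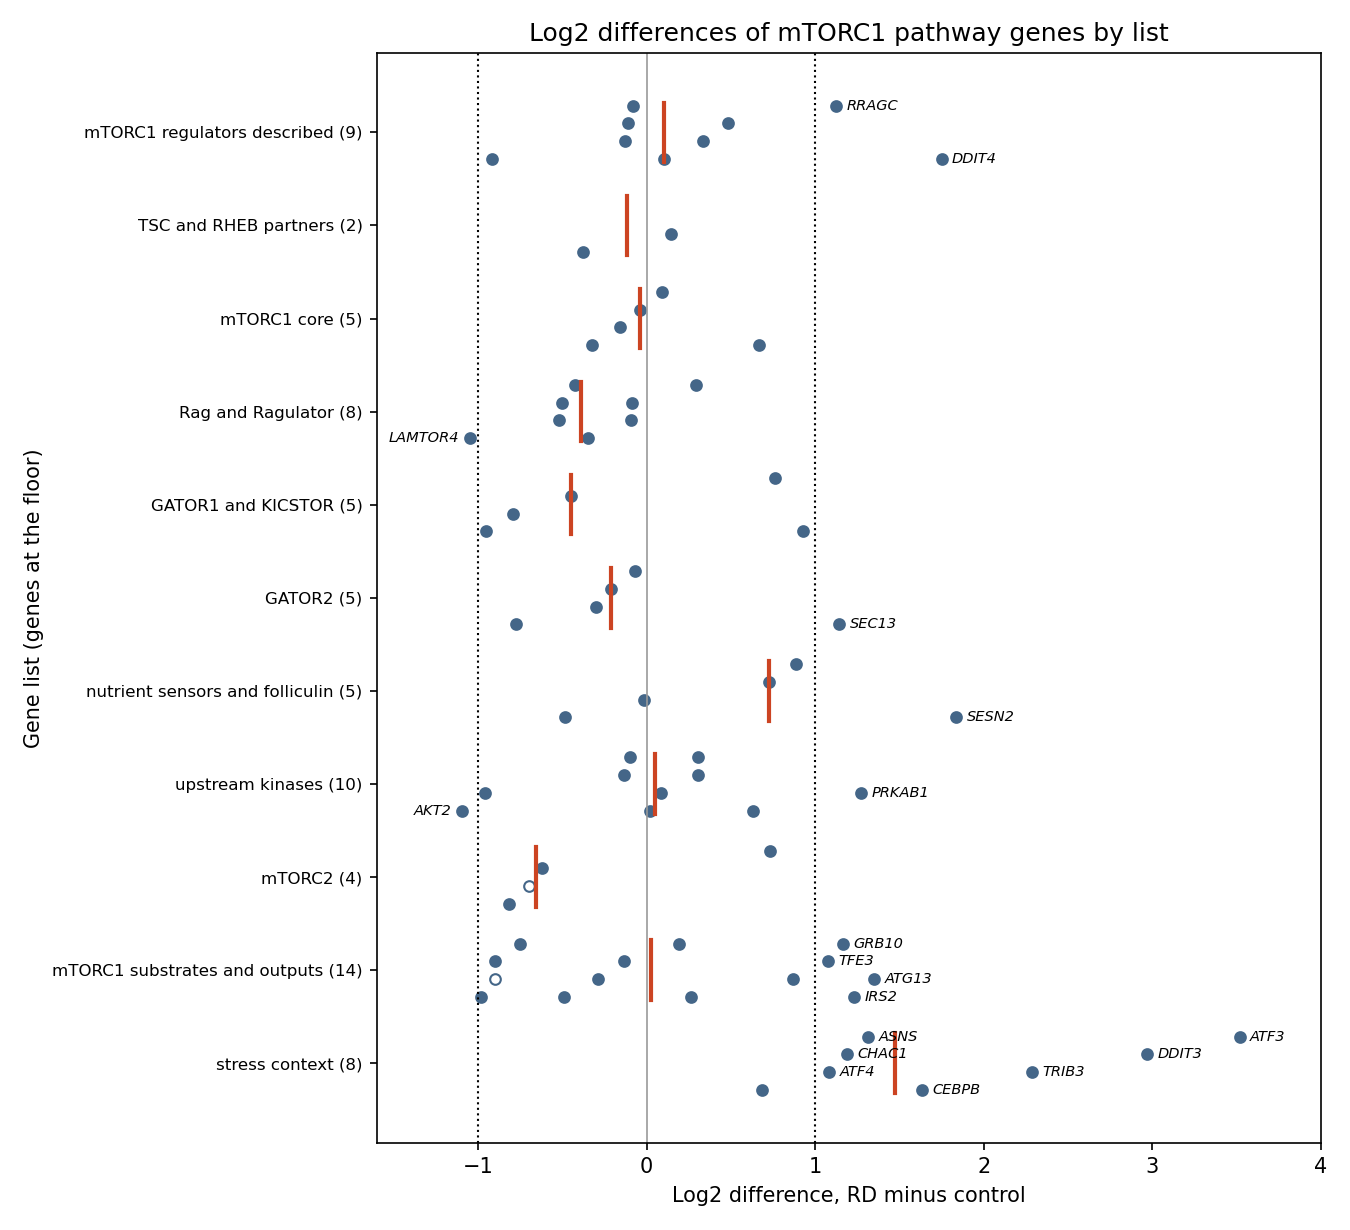
Log2 difference in signal (RD minus control, horizontal) for genes at the floor, arranged by list (gene counts in brackets). Each point is a gene by its brightest probe set, an open circle has 1 signal under the floor, a red bar shows the median of its list, the dotted lines show 2-fold and vertical placing within a list has no meaning. Most lists lie around 0, with SESN2 and DDIT4 farthest to the right among the pathway genes. Of 8 stress genes, 7 lie past 2-fold to the right, beside 12.1% of all genes called higher.

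Transcription factors known to act on these genes were also read. Of 8 stress context genes, namely ATF4 and genes that respond with it, all 8 had a higher signal in RD-treated cells. Of these, 7 were called higher (87.5%, beside 12.1% of all genes), with a median log2 difference of 1.47. This list was chosen with earlier results of these data known, so its share is a description only. ATF4 itself went from 18594.1 to 39419.6 (2.12-fold higher), and its target TRIB3 was 4.88-fold higher. Others of this list were ATF3 (11.5-fold), DDIT3 (7.84-fold), CEBPB (3.11-fold), ASNS (2.48-fold) and CHAC1 (2.27-fold). PSAT1 was short of 2-fold by its brightest probe set (1.60-fold) and 2.04-fold higher by its other. Of the FOXO factors, FOXO3 was 2.25-fold higher, from 1258.4 to 2830.1, and FOXO4 was at 0.875 of control. FOXO1 was at least 1.54-fold higher by its brightest probe set, since its control signal of 32.4 lay under the floor. The other FOXO1 probe sets lay under the floor on both arrays, at 7.6 and 31.5 and at 42.2 and 3. Whether these factors had a part in the signals of DDIT4, SESN2 or SESN3 was not tested.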

How the data were processed

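Total RNA of 1 control and 1 RD-treated PC-3 culture was hybridised to HG-U133 Plus 2.0 arrays. The deposited values are linear intensities, which the submitters' processing notes name as MAS5 signals. Neither a MAS5 version nor a target for the scaling was stated. After trimming 2% of probe sets at each end, the array means were 495.8 and 495.9. There are no detection calls. Samples were grouped by title. Log2 differences were computed with no offset or further scaling. Genes came from the platform annotation: 41091 probe sets had 1 gene, the 1801 with several were left out, and 11721 had none in it. Errors are the SD of log2 differences within 6518 genes with several probe sets at the floor (3382 at the 75th percentile). The members and lists were chosen with earlier results of these data known. Named are the 10 genes with their probe sets, pathway genes past 2-fold (otherwise the ends of each list), and the context and marker genes. MTOR, DDIT4L, RRAGA, RRAGB, LAMTOR5, BORCS6, KICS2, FLCN, FNIP1, FNIP2, LPIN1, EIF4E and RPS6KB1 were named after their values were seen. The alternatives were quantile normalization, median centring, adding 17.1 (the 25th percentile) to signals, other choices of probe set, other floors and thresholds of 1.5-fold and 3-fold. Scripts were tested on simulated data. Software was pandas 2.3.3, numpy 2.4.6 and matplotlib 3.10.9 under Python 3.11.15.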

Additional observations from a re-analysis of the deposited data

How the results depend on the processing

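With 1 array per condition no replicate could be left out and no paired analysis was possible. The labels also give no replicate numbers. Over 9 alternatives each, the median log2 differences lay between 0.01 and 0.41 for the described genes and between -0.12 and -0.04 for the pathway genes. The DDIT4 log2 difference ranged from 1.73 to 1.77 over the 6 alternatives that gave one and that of RRAGC from 1.10 to 1.19 over 7. DDIT4 has 1 probe set, above the floor on both arrays. Other choices of probe set and raising low signals to the floor thus could not move it. TSC2 went from 0.10 to -0.32 with the median over its probe sets. Without the suffixes for shared sequence, DDIT4, SESN1 and RRAGD had no probe set, and 1 of 5 described genes at the floor was higher (RRAGC). Of 41 pathway genes, 3 were higher and 0 lower, beside 12.7% and 13.9% of all genes. The pathway genes SESN2, SEC13, ATG13, IRS2 and LAMTOR4 had no probe set in this setting. At 3-fold, 1 described gene (DDIT4) and 1 pathway gene (SESN2) were higher and 0 pathway genes lower, with 668 genes higher and 775 lower in all. At 1.5-fold, 1 described gene (DEPTOR) was lower. Of 58 pathway genes, 15 were then higher and 13 lower, with 2926 (22.8%) and 3169 (24.7%) in all. With no floor, 3321 genes were higher and 3566 lower, and with a floor at the 75th percentile 802 and 881, by construction of the threshold and floor. No floor would also count SESN3 as higher.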
